A study of Homo sapiens with 4 samples.

Results

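Distal MTF-1 peaks that lay inside genes in untreated MDA-MB-231 cells and were missing from the peak list of cadmium-passaged cells are described here. A peak of the control list was taken when it shared no base with any cadmium peak, when its centre was over 3 kb from every GENCODE 44 transcript start, and when its centre fell inside at least 1 annotated gene. By this rule 9311 of the 69299 control peaks were members, and they covered 11.2 Mb. The members were thus chosen by the absence of a cadmium peak, so that absence is given as a description and was not tested. Of all control peaks on chromosomes 1 to 22 and X, 27.9% had no cadmium peak, and of those that were distal and genic 35.8% had none, which is the class described.

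The cells were MDA-MB-231, a widely used line from a human breast cancer. CUT&RUN, in which an antibody brings a nuclease to a chromatin protein and the released DNA is sequenced, was carried out with an anti-MTF1 antibody on 2 libraries of each group. The control cells received no treatment and were passaged in normal medium, and the other group was passaged in CdSO4, first at 5 µM and then at 10 µM for at least 10 passages, so it is a population selected for growth in cadmium and not cells exposed for a short time. Neither group carried an engineered change in MTF-1. The authors merged the 2 libraries of a group before calling peaks, which left 1 list of positions per group with no height, count or score. The spread between replicates and the depth are therefore not known from these lists. The coverage and reads of the study were not used here, and a list of positions does not show how much signal stayed below the caller's threshold. Every test below compares classes of peaks in the 2 lists, not replicates of the conditions, and since neighbouring peaks are not independent the intervals cover counting error only. Identity of the cells could not be checked from positions alone.

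MTF-1 is the zinc finger transcription factor that binds metal response elements and switches on metallothioneins and the zinc exporter SLC30A1 when zinc or cadmium rises. Peaks far from a transcript start often mark enhancers, and many of these lie in the introns of long genes. AP-1 is the family of FOS and JUN dimers that occupies many enhancers of this kind in epithelial cells, and the forkhead (FOX) proteins are a second large family that binds AT-rich sites in open enhancers.

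The peaks closest to the limits of the rule were few. Of the members, 10 lay in the 200-bp bin next to a cadmium peak, 220 (2.36%) had a cadmium peak within 1 kb, 4922 (52.9%) had none within 10 kb and 599 (6.43%) had none within 100 kb. The median gap to the closest cadmium peak was 11001 bp (quartiles 4201 and 29601 bp). On the other side of the limit, 783 kept peaks (4.69%) shared at most 199 bp with a cadmium peak and 5096 (30.5%) were covered by cadmium peaks over less than 50% of their length. Kept here means a distal genic control peak that shared at least 1 base with a cadmium peak, and there were 16712 of these. By distance, 395 members had their centre 3001 to 3500 bp from a start, and 446 lost peaks inside genes fell 2501 to 3000 bp from one and were left out.

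The sequences of a few members show the strings on which the comparisons below turn. The first set comes from the 6 host genes with the most members and shows, for each gene, the intronic member with the most forkhead strings in its central 200 bp. All coordinates are hg38, plus strand, and capitals mark a forkhead string on either strand, which was ATAAACA, its variant with G first, namely GTAAACA, or the same pair with T in place of C, namely ATAAATA with its variant GTAAATA.
ENSG00000285708 intron, chr3:71011700-71011899: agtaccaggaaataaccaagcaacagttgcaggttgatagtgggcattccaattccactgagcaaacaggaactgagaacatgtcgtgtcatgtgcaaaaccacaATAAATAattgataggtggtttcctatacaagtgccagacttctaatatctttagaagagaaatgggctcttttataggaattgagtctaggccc
SHANK2 intron, chr11:70831700-70831899: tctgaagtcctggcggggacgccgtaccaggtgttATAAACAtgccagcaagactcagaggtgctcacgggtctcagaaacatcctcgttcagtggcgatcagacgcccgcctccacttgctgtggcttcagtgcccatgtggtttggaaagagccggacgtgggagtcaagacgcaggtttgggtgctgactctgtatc
PTPRN2 intron, chr7:158260300-158260499: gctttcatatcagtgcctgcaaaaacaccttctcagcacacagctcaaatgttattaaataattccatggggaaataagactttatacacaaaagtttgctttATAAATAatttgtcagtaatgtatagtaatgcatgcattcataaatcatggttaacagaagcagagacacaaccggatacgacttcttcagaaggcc
AOPEP intron, chr9:94894600-94894799: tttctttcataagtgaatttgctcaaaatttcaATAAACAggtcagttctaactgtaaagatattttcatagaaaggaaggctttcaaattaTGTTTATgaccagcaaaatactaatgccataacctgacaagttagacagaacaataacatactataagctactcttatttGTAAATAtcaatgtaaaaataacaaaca
DST intron, chr6:56652800-56652999: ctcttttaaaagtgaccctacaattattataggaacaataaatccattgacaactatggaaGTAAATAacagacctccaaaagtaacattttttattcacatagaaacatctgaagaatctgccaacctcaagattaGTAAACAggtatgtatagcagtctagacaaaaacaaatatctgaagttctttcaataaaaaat
CASC15 intron, chr6:22448300-22448499: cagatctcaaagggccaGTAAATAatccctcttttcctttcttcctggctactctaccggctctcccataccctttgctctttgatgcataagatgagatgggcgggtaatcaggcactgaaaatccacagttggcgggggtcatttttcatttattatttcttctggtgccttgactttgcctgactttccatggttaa
The AOPEP window held 3 forkhead strings in 200 bp at a GC content of 30.0% (over the central 500 bp), and the DST window held 2. The SHANK2 window was the most GC-rich of the 6, at 53.2%, and the PTPRN2 window is the centre of a peak of 10799 bp.

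The second set shows the 3 intronic members, among those of the leading host genes and of the genes with changed expression, whose AP-1 string, TGACTCA or TGAGTCA in capitals, lay closest to the peak centre.
CHRM3 intron, chr1:239548100-239548299: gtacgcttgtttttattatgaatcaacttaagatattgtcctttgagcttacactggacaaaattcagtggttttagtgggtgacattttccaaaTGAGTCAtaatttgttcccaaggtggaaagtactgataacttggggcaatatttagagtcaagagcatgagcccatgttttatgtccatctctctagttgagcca
NTM intron, chr11:132111900-132112099: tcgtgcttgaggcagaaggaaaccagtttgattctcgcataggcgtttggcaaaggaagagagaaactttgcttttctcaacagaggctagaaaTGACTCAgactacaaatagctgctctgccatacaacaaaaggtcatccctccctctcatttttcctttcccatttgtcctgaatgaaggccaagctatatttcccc
KCNH7 intron, chr2:162582500-162582699: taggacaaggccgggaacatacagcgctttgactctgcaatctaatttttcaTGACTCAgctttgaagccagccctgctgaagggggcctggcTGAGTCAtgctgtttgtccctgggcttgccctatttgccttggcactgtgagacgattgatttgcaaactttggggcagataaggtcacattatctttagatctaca
All 3 are peaks of 399 bp, and the string lay 2, 3 and 4 bp from the centre. The KCNH7 window held a second AP-1 string. The closest cadmium peak was 265801 bp away for CHRM3, 39001 bp for NTM and 237801 bp for KCNH7.

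The third set, chosen after the values were seen, shows members with 3 metal response element cores (TGCACNC or TGCGCNC) including the longer string TGCACACG. The motif collection JASPAR lists TGCACACG for MTF-1. The paper holds that it does not seem to be a genuine MTF-1 motif. Capitals mark the cores and that string.
LINC00511 intron, chr17:72560700-72560899: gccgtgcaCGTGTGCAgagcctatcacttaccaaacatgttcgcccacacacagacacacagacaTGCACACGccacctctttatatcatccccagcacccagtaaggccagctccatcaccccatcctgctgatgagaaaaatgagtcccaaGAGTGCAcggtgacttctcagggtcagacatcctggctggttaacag
FOXP4 intron, chr6:41566800-41566999: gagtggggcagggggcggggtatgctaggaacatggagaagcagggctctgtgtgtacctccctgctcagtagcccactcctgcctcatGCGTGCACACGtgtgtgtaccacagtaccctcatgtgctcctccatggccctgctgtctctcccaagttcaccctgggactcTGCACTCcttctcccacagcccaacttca
The LINC00511 window held TGCACACG 2 times and the FOXP4 window 1 time. Their GC contents, 57.8% and 56.4%, were above the median of the members.

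Members were narrower and more AT-rich than the distal genic peaks that were kept. Their median width was 799 bp (quartiles 599 and 1599 bp), against 1199 bp (599 and 1999 bp) for kept peaks. Peaks of at least 1000 bp made up 40.2% of members (95% Wilson interval 39.2 to 41.2%) and 54.4% of kept peaks (53.7 to 55.2%), an odds ratio of 0.563 (0.535 to 0.593, adjusted exact p = 3.87e-106, exact test of Fisher, adjusted by Benjamini-Hochberg across 62 tests, as for every adjusted exact p below). This order depended on how loss was defined: where a kept peak had to be covered over at least 50% of its length, the odds ratio was 1.48. A wider peak has more bases that can meet a cadmium peak, so width is tied to the rule and the test is not independent of it. The 500 bp around the centre had a median GC content of 43.0% in members and 45.4% in kept peaks, and it was under 40% in 33.3% of members (32.3 to 34.2%) and 22.3% of kept peaks (21.7 to 23.0%), an odds ratio of 1.73 (1.64 to 1.83, adjusted exact p = 2.26e-79).

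Seen from the control list, the share of distal genic peaks that were lost fell with width, from 59.5% of the 550 peaks of a single 200-bp bin to 25.5% of the 5470 peaks of 2199 bp or more. This fall is not independent of the rule, by which a wider peak has more bases that can be shared. The share lost also fell with GC content, from 48.9% under 35% GC to 25.7% at 55% or more. The fall with GC content was seen in narrow and intermediate peaks and not in the widest class. Among peaks under 900 bp the share lost was 55.2% below 40% GC, 40.7% from 40 to 50% and 30.8% above 50%. From 900 to 2100 bp it was 40.2%, 33.2% and 24.99% in the same GC classes, while among peaks over 2100 bp it was 24.1%, 26.0% and 25.5%. The part of the reads behind each peak in these shares was not tested.

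**Figure D1:**
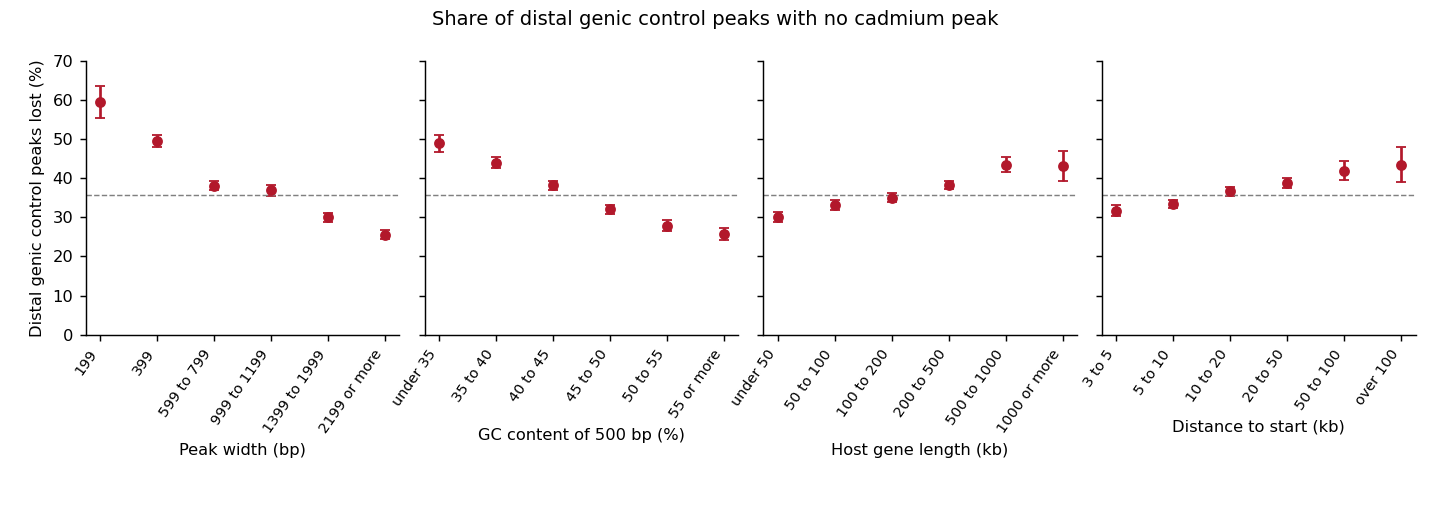
Share of distal genic control peaks with no cadmium peak (%, vertical axis) by peak width, GC content, host gene length and distance of the centre from the closest transcript start. Points are shares, bars are 95% Wilson intervals, and the dashed line is the share over all distal genic control peaks, 35.8%. The share falls from 59.5% to 25.5% with width and from 48.9% to 25.7% with GC content, and among the gene length classes it is highest in genes of 500 to 1000 kb (43.4%). Width is tied to the rule of loss, since a wider peak has more bases that can be shared.

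Distal genic peaks found in the cadmium list alone (gained, 3892 peaks) were the other contrast. They were narrower than members, with a median of 599 bp, and richer in GC, with a median of 47.4%. Peaks of at least 1000 bp made up 22.5% of them (21.2 to 23.8%; odds ratio of members against gained 2.32, 2.13 to 2.53, adjusted exact p = 1.75e-87), and a GC content under 40% was found in 14.8% (13.7 to 15.9%; odds ratio 2.87, 2.60 to 3.17, adjusted exact p = 2.26e-110). Single-bin peaks were 3.51% of members, 1.33% of kept peaks and 8.97% of gained peaks.

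Forkhead strings had the largest odds ratio of members against kept peaks among the 15 strings searched in the 500 bp around the centre without strata. The paper had already reported FOX motifs enriched in its lost peaks and FOS/JUN motifs in its gained peaks, each set against its conserved peaks. The strings were searched here in the same lists with that result known, so these tests give it no independent support. In the 500 bp around the centre, 4100 members (44.0%, 43.0 to 45.0%) held at least 1 forkhead string, against 33.1% of kept peaks (32.4 to 33.8%), 26.3% of gained peaks (24.9 to 27.7%) and 30.5% of all control peaks. Members exceeded kept peaks with an odds ratio of 1.59 (1.51 to 1.67, adjusted exact p = 8.11e-67) and gained peaks with one of 2.21 (2.04 to 2.40, adjusted exact p = 5.75e-83). Because a forkhead string is AT-rich, a string of the same base composition was searched beside it, in the form AAAATCA, the form AAAATTA, the form GAAATCA or the form GAAATTA. It was found in 47.4% of members and 44.1% of kept peaks, with a smaller odds ratio of 1.14 (1.08 to 1.20, adjusted exact p = 1.25e-06). Against gained peaks, of which 36.0% held it, its odds ratio was 1.60 (1.48 to 1.72, adjusted exact p = 2.05e-32). The excess over gained peaks was thus shared in part by this string. Over 11 alternatives the odds ratio against gained peaks ran from 1.57 to 3.58 for the forkhead string and from 1.12 to 2.73 for the same-composition string. When peaks were compared within strata of width and GC content, the odds ratio of the forkhead string against kept peaks was 1.32 (1.25 to 1.40) and that of the same-composition string 0.971 (0.920 to 1.03).

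AP-1 strings, also searched with the paper's result on FOS/JUN motifs known, went the other way. They were found in 2391 members (25.7%, 24.8 to 26.6%), in 33.4% of kept peaks (32.7 to 34.1%) and in 34.3% of gained peaks (32.9 to 35.8%), against 24.5% of all control peaks. Set against kept peaks, members had an odds ratio of 0.689 (0.651 to 0.729, adjusted exact p = 4.41e-38) and 0.532 (0.50 to 0.565) within strata of width and GC content. Among peaks of at least 1000 bp it was 0.580. There and in the strata the AP-1 string departed farther from an odds ratio of 1 than the forkhead string (1.23 and 1.32). With the whole peak searched the AP-1 odds ratio was 0.502, the forkhead one 1.11 and that of the same-composition string 0.817. Kept peaks are wider than members, so this search covered more sequence in kept peaks and cannot rank the strings. Against gained peaks the AP-1 odds ratio was 0.661 (0.610 to 0.717, adjusted exact p = 1.71e-22). Among peaks of at least 1000 bp it turned to 1.14 (0.910 to 1.42), and with the whole peak searched it was 0.934. The difference thus did not hold for wide peaks or with whole peaks searched. Members are wider than gained peaks, so the search of whole peaks covered more sequence in members.

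**Figure D2:**
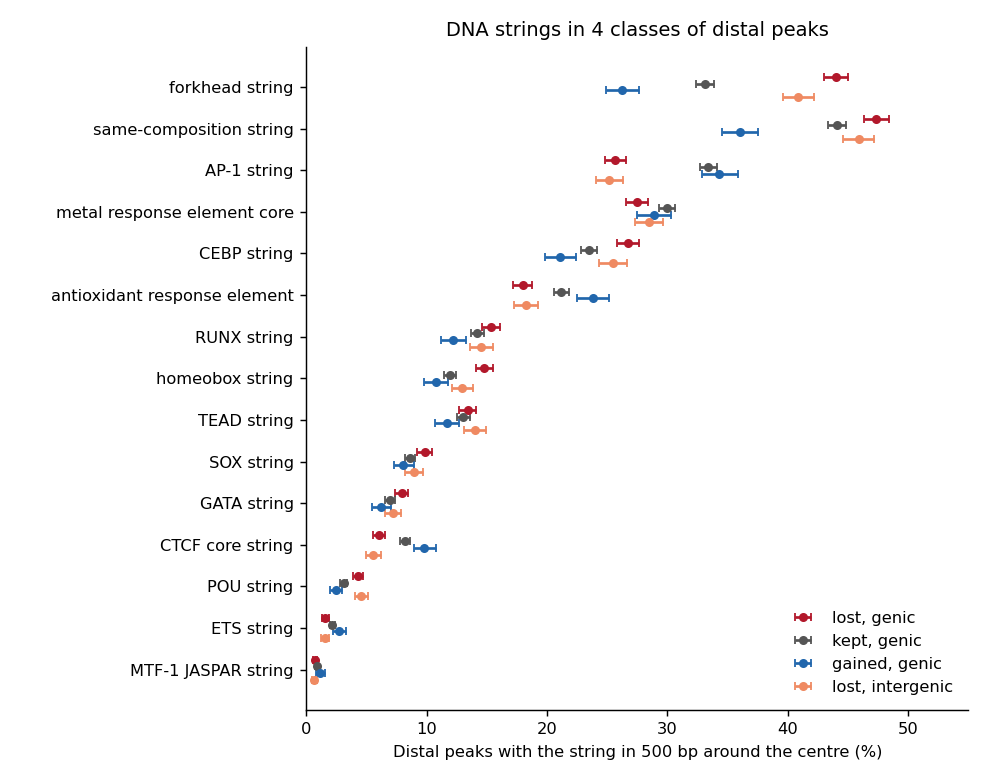
Percentage of peaks with each DNA string in the 500 bp around the centre (horizontal axis) in lost genic peaks (red), kept genic peaks (grey), gained genic peaks (blue) and lost intergenic peaks (orange), with 95% Wilson intervals. Lost genic peaks have the highest forkhead share, 44.0%, and an AP-1 share of 25.7%, below the 33.4% of kept and 34.3% of gained peaks.

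The position of the strings differed as well. AP-1 strings piled up at the centre of members: their density in the central 200 bp was 4.65 times that over 500 bp away, against 4.26 times in kept peaks and 7.56 times in gained peaks. Forkhead strings showed no such rise, with a ratio of 1.04 in members, but they thinned out at the centre of kept peaks (0.810) and gained peaks (0.597). The same-composition string thinned out in all 3 classes, to 0.707 in members, 0.767 in kept and 0.574 in gained peaks. The TEAD string CATTCCA, which is bound by partners of YAP, rose at the centre of members by 1.84 times, of kept peaks by 1.5 times and of gained peaks by 1.796 times. These ratios are descriptions with no test.

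**Figure D3:**
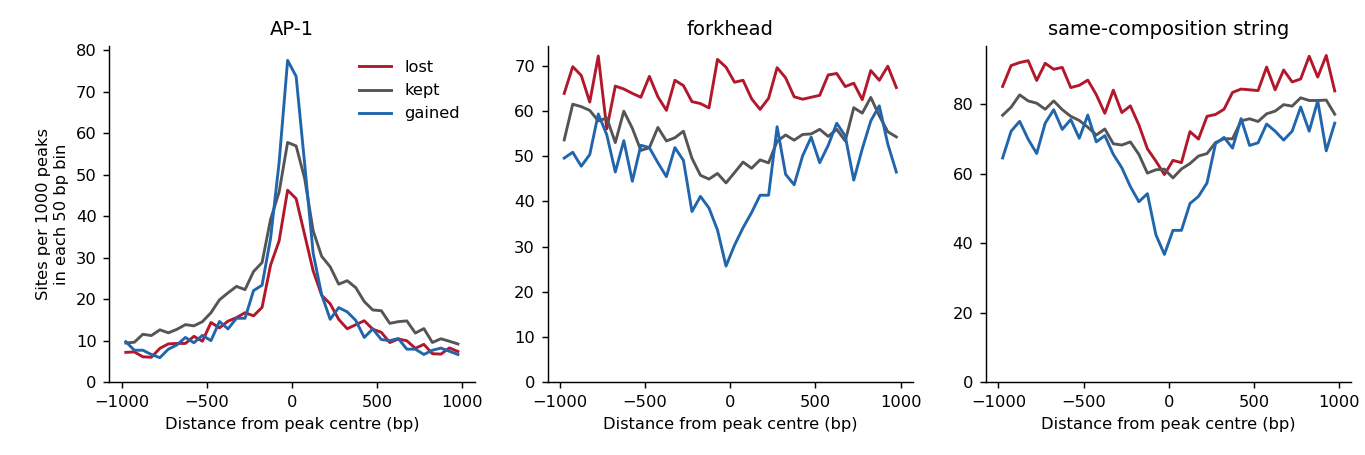
Number of string matches per 1000 peaks in each 50-bp bin (vertical axis) against distance from the peak centre (bp), for lost (red), kept (grey) and gained (blue) distal genic peaks. AP-1 peaks at the centre in all 3 classes, with the lowest central density in lost peaks, whereas the forkhead line stays flat in lost peaks (centre to flank ratio 1.04) and dips in kept (0.810) and gained peaks (0.597).

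Within the members the strings followed width and GC content. Forkhead strings were in 48.8% of members under 1000 bp (47.5 to 50.1%) and in 36.9% of wider ones (35.4 to 38.5%), and AP-1 strings in 33.7% (32.4 to 34.9%) and 13.8% (12.7 to 14.9%). The 500 bp searched is a smaller part of a wide peak, and over the whole peak the order turned for both strings, with AP-1 in 38.85% of the narrow and 48.6% of the wide members and forkhead in 51.5% and 78.8%. In members with a GC content under 40%, 61.6% held a forkhead string against 53.7% of kept peaks of that GC content, and at 50% GC or more the shares were 22.9% and 16.3%. Members in introns alone held forkhead strings in 45.7% and AP-1 strings in 27.0%, and those over an exon in 35.2% and 18.7%. Both strings occurred together in 1142 members, a forkhead string without AP-1 in 2958, AP-1 without forkhead in 1249 and neither in 3962 (42.6%). More than 1 forkhead string was found in 1283 members, and the highest number was 11. These counts of joint and repeated strings were not set beside those of other peaks, so they describe the members alone.

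The element MTF-1 itself is known for did not set members apart in a stable way. The metal response element core was in 2555 members (27.4%, 26.5 to 28.4%) and in 30.0% of kept peaks (29.3 to 30.7%), an odds ratio of 0.884 (0.836 to 0.936, adjusted exact p = 4.32e-05). The core is GC-rich, and within strata of GC content the odds ratio was 1.06 (0.996 to 1.12), so the difference no longer passed the test and its sign turned. Within GC classes the shares were 14.0% and 14.3% under 40% GC, 30.5% and 30.3% from 40 to 50%, and 43.2% and 41.5% above, for members and kept peaks in turn. Against gained peaks (28.9%) the odds ratio was 0.932 (0.858 to 1.01, adjusted exact p = 0.146). This value depended on the comparison, since it was 0.828 (0.760 to 0.903) within strata of width, but 1.25 (1.14 to 1.36) within strata of GC content, 1.17 (1.06 to 1.28) within strata of both and 1.44 (1.33 to 1.55) with the whole peak searched. Members are wider than gained peaks, so the search of whole peaks covered more sequence in members. The JASPAR string TGCACACG, which the paper doubts as an MTF-1 motif, was rare. It was in 65 members (0.698%, 0.548 to 0.889%) and 0.850% of kept peaks, and the odds ratio was 0.820 (0.611 to 1.10, adjusted exact p = 0.249). Over all control peaks the core was in 34.3% and TGCACACG in 0.914%.

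Of the other 10 strings, 6 were more frequent in members than in kept peaks and 3 less frequent, and the TEAD string did not pass the test. Within strata of width and GC content 2 of the 9 remained past the threshold. The first was the POU string ATGCAAAT, in 4.31% of members and 3.09% of kept peaks (odds ratio 1.41, 1.23 to 1.61, adjusted exact p = 1.33e-06; 1.21 within the strata), which was less frequent in members (0.921) when whole peaks were searched. The second was the antioxidant response element TGACNNNGC, bound by NRF2 and small MAF proteins, in 18.0% and 21.2% (odds ratio 0.815, 0.764 to 0.870, adjusted exact p = 1.60e-09). It is not independent of the AP-1 string, since TGACTCAGC matches both, and such shared matches were not counted. The string TTGCNNAA for C/EBP was among the 6, beside TGTGGTT for RUNX, the string AGATAAG for GATA, that for SOX factors (AACAATG) and that for homeobox factors (TAATTA). The ETS string CCGGAAG was among the 3, beside the core of the CTCF site (AGGGGGC). Every string was searched on both strands.

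Lost distal peaks outside genes (5593) resembled the members in most of these features. They had a median width of 799 bp and a median GC content of 42.8%, and held AP-1 strings in 25.2% (24.0 to 26.3%; odds ratio of members 1.03, 0.953 to 1.11, adjusted exact p = 0.535). A GC content under 40% was found in 34.5% (odds ratio 0.948, 0.884 to 1.02, adjusted exact p = 0.183) and a width of at least 1000 bp in 41.1% (0.965, 0.902 to 1.03, adjusted exact p = 0.379). Forkhead strings were in 40.9% of them (39.6 to 42.2%), and the odds ratio of members was 1.14 (1.06 to 1.22, adjusted exact p = 3.88e-04), which fell to 1.05 (0.991 to 1.12, adjusted exact p = 0.147) when gene bodies were limited to protein-coding genes.

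The members lay mostly in introns of protein-coding genes. A protein-coding gene hosted 7282 of them (78.2%), a long noncoding RNA gene 1946 (20.9%) and another type of gene 83. Each member was assigned to 1 host gene, a protein-coding one first and then the longest, and 1067 lay in more than 1 gene. No exon base was touched by 7866 members (84.5%), and 1445 (15.5%, 14.8 to 16.3%) overlapped an exon, against 18.5% of kept peaks (18.0 to 19.1%). The odds ratio for exon overlap was 0.807 (0.754 to 0.864, adjusted exact p = 1.91e-09), but within width strata it was 1.02 (0.947 to 1.09).

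Members lay farther from starts and in longer genes than kept peaks. The median distance from the centre to a start was 12569 bp, against 10815 bp for kept peaks, and 9.40% of members (8.82 to 10.0%) were over 50 kb from a start, against 7.17% (6.79 to 7.58%; odds ratio 1.34, 1.23 to 1.47, adjusted exact p = 1.29e-09). Within strata of width and GC content this odds ratio was 1.12 (1.02 to 1.23) and no longer passed the test after adjustment. The median host gene was 174 kb long for members and 142 kb for kept peaks. Genes of at least 500 kb hosted 14.2% of members (13.5 to 14.9%) and 10.3% of kept peaks (9.87 to 10.8%), an odds ratio of 1.44 (1.33 to 1.55, adjusted exact p = 2.23e-19) that was 1.22 (1.12 to 1.32) within the strata.

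The members were spread over 4777 host genes, of the 8785 genes that had a distal control peak. Of these, 2841 had 1 member, 343 had at least 5 and 51 at least 10. The 12 genes with the most members are nearly all long. ENSG00000285708, a protein-coding annotation without a symbol that spans FOXP1 on chromosome 3 (70959226 to 71754229), held 28 members beside 15 kept and 0 gained peaks. FOXP1, a forkhead repressor, itself held 23 of these lost and 12 of these kept peaks. SHANK2, a postsynaptic scaffold on chromosome 11, held 26 lost and 9 kept peaks, and its members covered 74.8 kb with a median width of 2699 bp. PTPRN2, a secretory granule protein of the tyrosine phosphatase family, held 23 lost, 21 kept and 16 gained peaks. Peaks were thus both lost and gained along PTPRN2, whereas no peak was gained in SHANK2.

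AOPEP, an aminopeptidase, held 18 lost and 18 kept peaks. DST, which encodes the cytoskeletal linker dystonin, held 18 lost and 13 kept, and CASC15, a long noncoding RNA gene of 990 kb, held 18 lost and 5 kept. CDH4 (R-cadherin) held 17 lost, 14 kept and 8 gained, and RAD51B, a gene of homologous recombination, 17 lost and 23 kept. TMEM163, a zinc-binding membrane transporter, held 16 lost and 9 kept peaks. The list ends with NAV2 (16 lost, 12 kept), KAZN (16 lost, 22 kept) and FMN1 (15 lost, 9 kept). These 12 genes were ranked by count and not by share. Their shares lost ran from 42.1% in KAZN and 42.5% in RAD51B to 78.3% in CASC15. Over all distal genic control peaks the share was 35.8%. In host genes of 500 to 1000 kb it was 43.4%, and in those of 1000 kb or more 43.1%.

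The counts of strings in these genes are small and were not tested. None of the 26 members in SHANK2, none of the 17 in CDH4 and none of the 12 in DSCAML1 held an AP-1 string in the central 500 bp. These are genes with wide members (medians of 2699, 2199 and 3399 bp). Of all members of at least 1000 bp, only 13.8% held an AP-1 string in this window, which is a part of a wide peak. In ENSG00000285708 the median width was 899 bp, and of its 28 members 9 held an AP-1 string and 10 a forkhead string. Over all members these shares were 25.7% for AP-1 and 44.0% for forkhead. In FMN1, with a median width of 599 bp, 10 of the 15 members held a forkhead string.

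**Figure D4:**
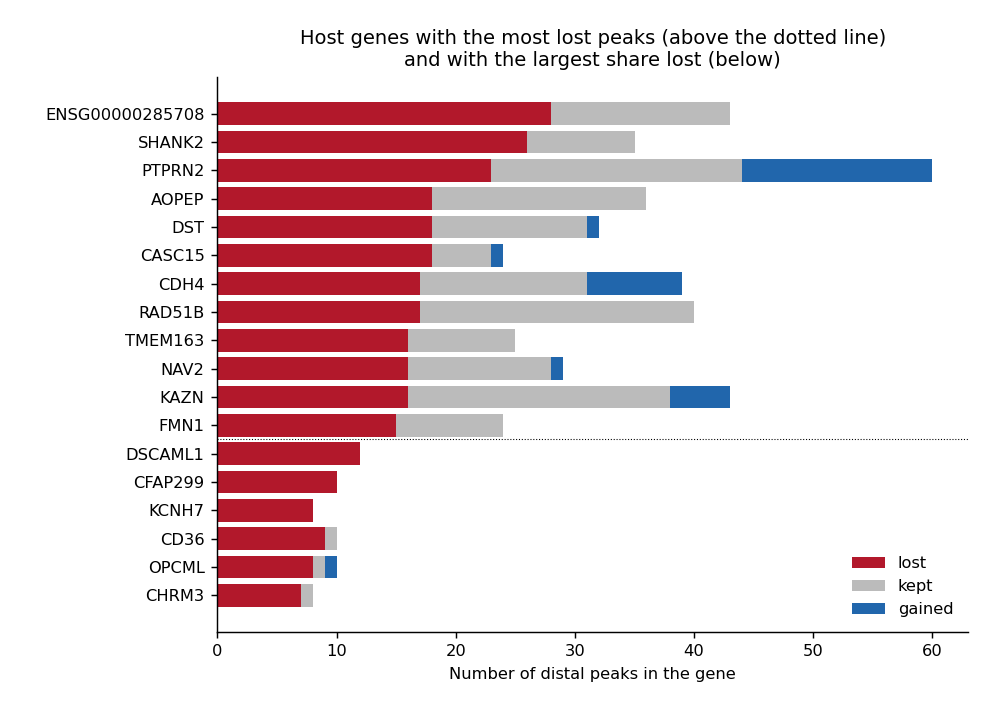
Number of distal peaks (horizontal axis) that were lost (red), kept (grey) and gained (blue) in the 12 host genes with the most lost peaks, above the dotted line, and in the 6 protein-coding genes with the largest share lost among those with at least 8 distal control peaks, below it. ENSG00000285708 leads with 28 lost peaks, and DSCAML1, CFAP299 and KCNH7 kept none.

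**Figure D5:**
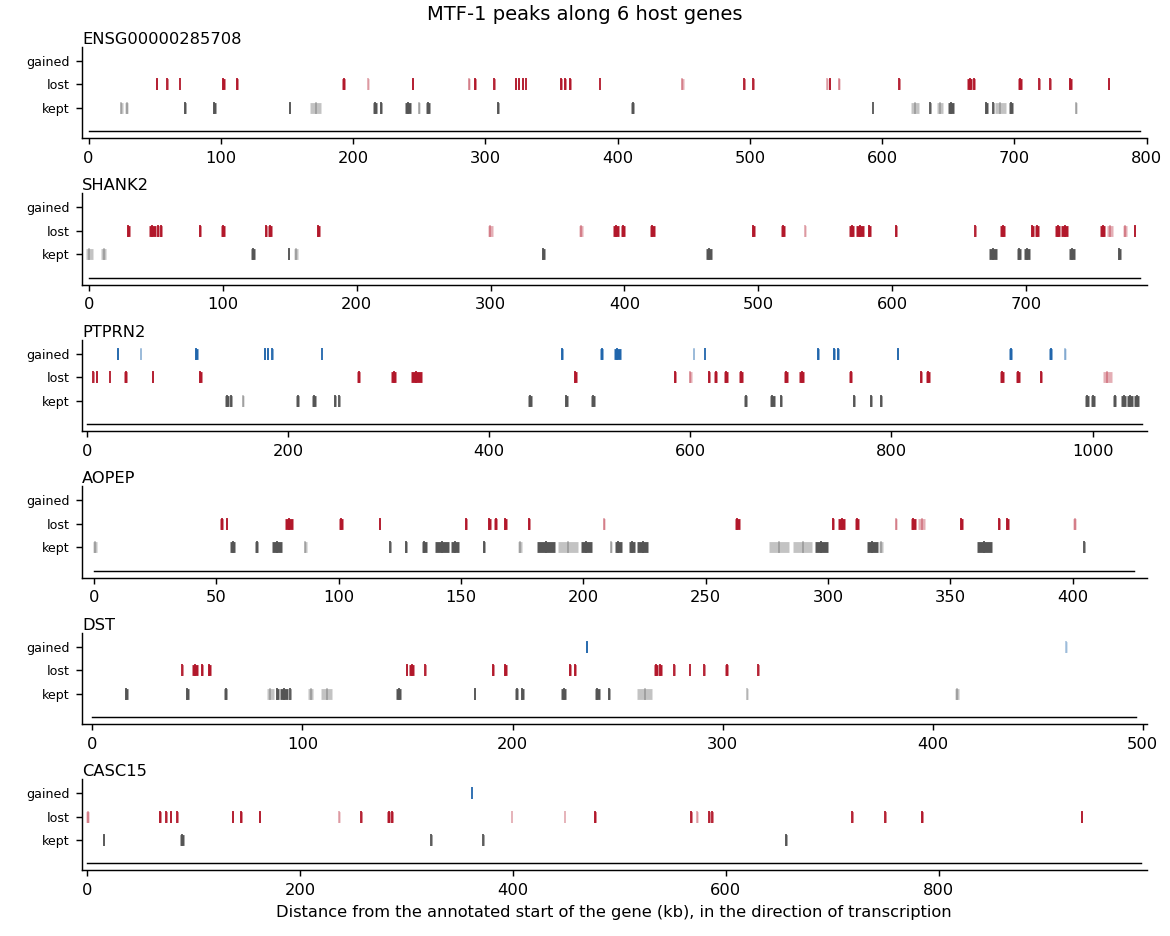
Peaks along the 6 host genes with the most lost peaks, by distance from the annotated start of the gene (kb) in the direction of transcription. Kept (grey), lost (red) and gained (blue) peaks are on separate lines, bars show the peak widths with a tick at the centre, and pale bars are peaks within 3 kb of a start, which are not members. Lost and kept peaks are interspersed along each gene, and gained peaks are numerous only in PTPRN2 (16 distal ones, beside some near a start).

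The share lost varied from gene to gene, but many genes held few peaks. The spread that counting error alone would give was not set beside these shares. In the 700 genes with at least 8 distal control peaks the median share lost was 33.9% (quartiles 22.2 and 50%), 45 genes lost at least 70%, 24 lost none and 3 lost all. The 3 were DSCAML1, a neuronal adhesion molecule of the Down syndrome cell adhesion family (12 of 12 peaks), CFAP299, a protein linked to cilia and flagella (10 of 10), and KCNH7, a voltage-gated potassium channel (8 of 8). CD36, a fatty acid and lipoprotein receptor, lost 9 of 10, OPCML, an opioid-binding cell adhesion molecule, 8 of 9, and CHRM3, a muscarinic acetylcholine receptor, 7 of 8. Members in DSCAML1 were wide, with a median of 3399 bp, while those in CFAP299, KCNH7, CD36 and OPCML had medians of 599, 399, 599 and 399 bp. Host genes without any kept peak numbered 1785, of which 106 had at least 3 members, and 1088 host genes also held a gained peak.

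Some members stood alone and others in stretches of lost peaks, and no share for scattered losses was set beside these counts. With the distal and other peaks of the control list put in order, 3781 members (40.6%) stood alone between peaks that were kept, 4412 (47.4%) were in a stretch of 2 to 4 consecutive lost peaks, and 1118 (12%) in a stretch of 5 or more. The longest stretches had 16 consecutive lost peaks. The first covered 402 kb of chromosome 11 (117391601 to 117793399) and held 12 members in DSCAML1 and 1 in CEP164. The second covered 279 kb of chromosome 5 (143635201 to 143913799) and held 11 members in the gene ENSG00000249881. Further stretches held 10 members in CFAP299, 10 in CCDC148 and UPP2 together, and 9 in KCNQ5, a potassium channel gene.

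The widest member spanned 28399 bp over an exon of the long noncoding RNA gene LINC01362 (chromosome 1, 83045201 to 83073599). The next widths were 11799 bp in ZNF746 (chromosome 7, 149468001 to 149479799), 10799 bp in SSPOP (chromosome 7, 149797601 to 149808399), 10799 bp in an intron of PTPRN2 (chromosome 7, 158255001 to 158265799) and 10399 bp in JPH2 (chromosome 20, 44110601 to 44120999). Their GC contents ranged from 36.4% in LINC01362 to 70.2% in JPH2. None of the 5 held an AP-1 string in the central 500 bp, against 13.8% of all members of at least 1000 bp. Only 65 members were at least 5000 bp wide, although members of at least 1000 bp made up 70.5% of the bases covered.

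The share lost also differed between chromosomes, from 22.2% on chromosome 22 (18.4 to 26.5%) and 22.8% on chromosome 16 (19.7 to 26.2%) to 48.4% on chromosome 11 (45.8 to 51.0%). Chromosomes 4 (44.8%) and 14 (44.3%) followed. GC content moved with part of this, as the median over distal genic control peaks was 50.8% on chromosome 22 and 41.0% on chromosome 4. It was 45.8% on chromosome 11, and among peaks with a GC content of 40 to 50% the share lost there was 49.9% (46.1 to 53.8%), against 27.0% on chromosome 22 (20.5 to 34.7%). Chromosome 11 carries SHANK2, DSCAML1, NAV2, OPCML and NTM.

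Genes of neuronal adhesion had the highest share lost of the gene lists described. In 12 of the 16 listed genes with a distal control peak at least 1 peak was lost, and together they lost 61 of 107 peaks (57.0%, 47.5 to 66.0%), against 35.8% over all distal genic control peaks. NTM (neurotrimin) held 15 lost and 7 kept peaks, TENM3 (a teneurin) 10 and 14, and CNTNAP2 (a neurexin relative) 8 and 3. Genes of common fragile sites, which are very long, lost 68 of 148 (45.9%, 38.1 to 54.0%), led by NAALADL2 (12 lost, 3 kept) and the scaffold MAGI2 (11 lost, 7 kept). CNTNAP2 is in both lists. Of the lists described, these and the forkhead factors had a 95% interval above 35.8%, and the interval of each of the others included it. That share covers genes of every length. Host genes of 500 to 1000 kb lost 43.4% of their distal genic control peaks, and those of 1000 kb or more 43.1%. The interval of the fragile-site genes includes both values, and that of the neuronal adhesion genes lies above them. Gene length was not matched in these comparisons. In the forkhead factors, 23 of the 33 lost peaks lay in the single gene FOXP1. No test was run on these lists, which were chosen with earlier results of these data known.

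Zinc transporters, which include classical targets of MTF-1, lost 16 of 37 distal genic peaks (43.2%, 28.7 to 59.1%), an interval that includes 35.8%, and 7 of the 12 genes with such a peak were involved. SLC30A10, an exporter of zinc and manganese, held 8 of the 16 lost peaks and 4 kept ones, with members of 599 to 3599 bp that lay 26311 to 62189 bp from a start. SLC39A11, a zinc importer, held 3 lost and 9 kept. SLC30A1, the zinc exporter of the plasma membrane, lost its only distal genic peak, of 1599 bp over an exon (chromosome 1, 211574801 to 211576399), 3561 bp from a start and 601 bp from the closest cadmium peak. That member held no metal response element core in its central 500 bp.

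Genes of glutathione and oxidative stress lost 9 of 23 peaks (39.1%), 3 of them in MGST1, a microsomal glutathione transferase, and 2 in SLC7A11, the cystine importer, where 2 were kept. The forkhead factors lost 33 of 69 (47.8%, 36.5 to 59.4%), and FOXN3 and FOXO3 lost 2 each. FOXP1, which lies within ENSG00000285708, held 23 of the 33 lost and 12 of the 36 kept peaks, so the share of this list rests largely on 1 gene. The AP-1 and related factors lost 11 of 32 (34.4%), with 5 lost and 3 kept in the repressor BACH2.

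Among membrane and signalling genes, cadherins and catenins lost 53 of 124 (42.7%), with 6 lost and 1 kept in PCDH7 and 5 lost and 2 kept in CDH1 (E-cadherin). Potassium channels lost 60 of 141 (42.6%), including KCNQ5 (11 lost, 5 kept) and KCNMA1 (10 lost, 17 kept). Glutamate receptors lost 33 of 81 (40.7%), with 14 lost and 16 kept in GRIK4. Phosphodiesterases lost 39 of 96 (40.6%), with 10 lost and 7 kept in PDE10A and 9 lost and 18 kept in PDE4D. Axon guidance genes lost 39.1% of their peaks, with 8 lost and 4 kept in SEMA3A and 7 lost and 16 kept in PLXNA4. ABC transporters lost 25 of 64 (39.1%), with 7 lost and 7 kept in ABCA13.

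Several lists sat near or below the share of all distal genic peaks. The TGF-beta pathway lost 38 of 105 (36.2%), with 8 lost and 9 kept in LTBP1. Voltage-gated calcium channels lost 13 of 36 (36.1%), with 3 lost and 2 kept in CACNA2D4 and 3 lost and 0 kept in CACNB2. Receptor-type tyrosine phosphatases lost 45 of 128 (35.2%), 23 of them in PTPRN2. Receptor tyrosine kinases lost 31 of 99 (31.3%), with 6 lost and 8 kept in IGF1R and 4 lost and 6 kept in EGFR. Collagens and laminins lost 33 of 106 (31.1%) and integrins 14 of 53 (26.4%), the lowest share of the lists described, with 6 lost and 5 kept in ITGBL1.

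In genes listed by the study as changed in expression in cadmium, the share of distal peaks lost was close to that over all distal genic control peaks. Of the genes listed as higher in cadmium, 118 were found by identifier, 49 had a distal genic control peak and 32 of these held a member. Of their 201 distal genic control peaks 71 were lost (35.3%, 29.0 to 42.1%). Of those listed as lower, 106 were found, 56 had such a peak and 25 of these held a member, and 57 of 172 peaks were lost (33.1%, 26.5 to 40.5%). Both intervals include the 35.8% of all distal genic control peaks. Over all genes, 4777 of the 8785 with a distal genic control peak held a member. The lists were made from the same cell populations and no expression value was used here.

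NTM, listed as higher, held the most members of these genes (15 lost, 7 kept, 3 gained). FRMD6, an upstream member of the Hippo pathway listed as higher, held 7 lost and 7 kept. DOCK2, an activator of RAC listed as lower, held 6 lost and 3 kept, and NRP2, a coreceptor for semaphorins and VEGF listed as lower, 5 lost and 2 kept. SNAP25, a SNARE protein of vesicle fusion listed as lower, lost all 5 of its distal genic peaks, from chromosome 20 position 10225601 onward, where the annotated antisense gene SNAP25-AS1 covers the same positions. Further genes were DOCK9 (4 lost, 7 kept), AFAP1L2 (3 lost, 5 kept), ARHGAP29-AS1 (3 lost, 10 kept) and CPNE5 (3 lost, 6 kept). Genes listed as higher and as lower thus both held members.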

How the data were processed

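The authors trimmed adaptors with bbduk, aligned CUT&RUN reads to hg38 with Bowtie2, merged the 2 libraries of each group with SAMtools 1.8 and called broad peaks on the merged reads in 200-bp bins. The labels name SICER 0.0.50 for this step and the study's methods name Epic2, a fast version of it. No control library is named. The deposited lists hold positions and a last column with the same value throughout, and give no height, count or depth. Here, peaks were compared by shared bases, and transcript starts (219270), genes and exons were taken from GENCODE 44. Sequences were read from hg38 with pysam 0.24.0, in 500 bp around each centre. Shares carry 95% Wilson intervals. Differences in share were tested with the exact test of Fisher (two-sided, scipy 1.17.1), odds ratios carry 95% Wald intervals, and p was adjusted across 62 tests by Benjamini-Hochberg with a threshold of 0.05. Strata of 200 bp of width, of 2% of GC content, or of 2% of GC content within 5 width classes were combined by the Mantel-Haenszel method. The steps were tested on simulated data. The members, strings and gene lists were chosen with earlier results of these data known. Named genes were the 12 host genes with most members, 6 protein-coding genes of at least 8 distal control peaks with the largest share lost, the 5 widest members, up to 10 genes of the study's expression lists, and up to 3 of each gene list. The AP-1 sequences were taken from the first 4 of these groups, and those with metal response element cores were added after the values were seen. One gene of the expression lists and 1 gene list are not reported here. Other genes named beside a stretch, and 2 zinc and glutathione genes, come from the same tables. Expression, accessibility and coverage data of the study were not used here.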

Additional observations from a re-analysis of the deposited data

How the results depend on the processing

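No paired analysis was possible because the peak lists used here were called on merged replicates, so no replicate could be left out of them either. The reads of single libraries were not used here. The repeat-masked comparison was not run because the reference used here carries no masking. The same alternatives for 11 further results, among them the same-composition, POU and TGCACACG strings, were chosen after seeing the data. Of 122 pairs of a planned result and an alternative, 103 kept direction and side of the threshold. Forkhead and AP-1 strings against kept peaks did so under all 11 alternatives (odds ratios from 1.11 to 1.65 and from 0.502 to 0.774), as did a GC content under 40% under all 7 and host genes of at least 500 kb under all 9. The number of members was 3746 for peaks of at least 1000 bp, 14407 when a kept peak had to be covered over at least 50%, and 5488 over 10 kb from every start. The metal response element core against kept peaks had odds ratios of 0.984 (at least 1000 bp), 0.989 (50% covered), 0.932 (over 10 kb) and 0.946 (width strata), which did not pass the test, and of 1.06 and 1.08 in strata of GC content and of width with GC content. Against gained peaks these strata gave 1.25 and 1.17, width strata 0.828, and the whole peak 1.44, all past the threshold, and members are wider than gained peaks. A width of at least 1000 bp gave 1.48 with 50% coverage. Exon overlap gave 0.953 for wide peaks, 1.07 with 50% coverage, 1.02 in width strata and 1.03 in strata of both. Distance over 50 kb gave 1.12 in strata of both. AP-1 against gained peaks gave 1.14 for wide peaks and 0.934 with the whole peak, and against intergenic peaks 0.948 with protein-coding genes only, where forkhead gave 1.05. The same-composition string against kept peaks gave 0.949 and 0.971 in strata of GC content and of both, and 0.817 with the whole peak. The TGCACACG string gave 1.00 and 1.05 in the same strata and 0.766 with the whole peak, where it passed the test, and the POU string 0.921 with the whole peak. Against intergenic peaks, a GC content under 40% gave 1.05 with 50% coverage and 1.06 with 1 peak per 100 kb, and a width of at least 1000 bp gave 1.01 with protein-coding genes only. With the whole peak searched, 0 of the other 10 strings were more frequent in members than in kept peaks and 9 were less frequent, against 6 and 3 in 500 bp (Fisher's exact test), and kept peaks are the wider class. The cause of the other changes was not tested. Depth, which the lists do not give, limits every class, since a peak near the caller's threshold can be absent from a list while signal remains.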
